A study of Mus musculus with 11 samples.

Results

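The 10 genes studied here present antigen on major histocompatibility complex (MHC) class II molecules, and their RNA was followed in mouse small intestine. They were chosen by symbol from the table of all libraries, which held 24250 genes. All 10 were found, and all 10 averaged at least 1 FPKM (fragments per kilobase of gene, scaled to the size of the library), the level at which a gene was tested. They were 10 of 10296 tested genes. RNA was sequenced in 11 libraries from 3 groups. Mice of the ND group, taken here to mean normal diet, gave 3 libraries, and mice of the HFD group, taken to mean high-fat diet, gave 4. Mice given 5 Substances Powder with Poria, a herbal preparation whose number the labels write as a word and which is abbreviated FSP here, gave 4. The labels name the intestine and the design text the small intestine. They give no strain, sex, age, dose, duration, stretch of gut or batch, and they do not state the diet of FSP, although the series title speaks of obese mice. Whether each library is a different animal is not stated, so the p-values below reflect only how far these samples spread, and that spread may be technical.

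MHC class II molecules are pairs of an alpha and a beta chain that carry peptides from endosomes to the cell surface for CD4+ T cells. New pairs travel with the invariant chain Cd74, which the protease Ctss trims. H2-DM, made of H2-DMa and H2-DMb1, then loads peptide, and H2-O, made of H2-Oa and H2-Ob, restrains H2-DM. Ciita is the coactivator that switches class II genes on. B cells, dendritic cells and macrophages carry class II as a matter of course, and in the small intestine the absorptive epithelium carries it too when induced, with interferon gamma as the known inducer. H2-O is known mainly from B cells and from some dendritic cells.

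Of the members, 7 lie in the class II region of chromosome 17 (mm10, gene spans from GENCODE vM21). In order they are H2-Oa (34092340 to 34095234), H2-DMa (34119541 to 34139101), H2-DMb1 (34153072 to 34160230), H2-Ob (34238903 to 34254414), H2-Ab1 (34257689 to 34269419), H2-Aa (34282744 to 34287823, minus strand) and H2-Eb1 (34305867 to 34316674). Ciita lies on chromosome 16 (10480059 to 10528418) and Ctss on chromosome 3 (95526786 to 95556403). Exons of H2-DMa, H2-Oa and Ciita share bases with Brd2, BC051537 and Dexi on the other strand. The use of strand in counting is not given in the sources used here, so reads from these pairs cannot be told apart. H2-DMb1 has a near-identical neighbour in H2-DMb2, and H2-Eb1 a relative in H2-Eb2, so their levels depend on how shared reads were assigned.

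Class II promoters are known for an X box, bound by the RFX complex, followed by a Y box, bound by NF-Y, to which Ciita is recruited. RefSeq promoters (GRCm38.p6) matched 7 members, at 8 start sites. In the 250 bases before the start, the letters CNNGNAAC (an X box core) followed by GATTGG (a Y box) after a gap of 12 to 30 bases were searched. They stood on the gene's own strand in 5 members, and in 46 of all 32851 start sites (0.14%). On either strand the pair stood in 75 (0.228%), CNNGNAAC alone in 33.3% and GATTGG alone in 14.6%. The letters and the gap were chosen with these promoters in view, so the count is a description. In the sequences below, each running 5′ to 3′ on the gene's strand up to the start, or for H2-Oa up to the end of the Y box, capitals mark the X core and the Y box. They are shown because these genes carry the same arrangement, yet H2-Aa and H2-Eb1 differ in their levels across libraries from H2-Oa and H2-Ob. H2-DMb1 is not printed, since GENCODE places its first exon over the pair.
H2-Aa, chr17:34287824-34287943, minus strand: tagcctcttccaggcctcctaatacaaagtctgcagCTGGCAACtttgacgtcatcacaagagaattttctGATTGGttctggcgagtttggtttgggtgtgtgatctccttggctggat
H2-Eb1, chr17:34305747-34305866, plus strand: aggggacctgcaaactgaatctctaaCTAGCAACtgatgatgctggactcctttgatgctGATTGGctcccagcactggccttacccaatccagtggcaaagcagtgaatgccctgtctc
H2-Oa, chr17:34092259-34092340, plus strand: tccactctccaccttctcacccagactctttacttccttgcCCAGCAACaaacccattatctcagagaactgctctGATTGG
H2-Ob, chr17:34238785-34238902, plus strand: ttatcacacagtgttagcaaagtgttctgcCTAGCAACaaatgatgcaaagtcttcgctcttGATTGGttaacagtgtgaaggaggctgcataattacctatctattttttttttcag
The gap was 27 bases in H2-Aa, H2-DMb1 and H2-Oa, 26 in H2-Eb1 and 24 in H2-Ob, and the Y box began 44 to 62 bases before the start. The starts of H2-DMa and Ctss held no such pair in the window. Ctss held GAAA, any 2 bases and GAAA, the core letters of an interferon-stimulated response element, beginning 21 bases before its start, which 2.98% of start sites hold on either strand. Its sequence, with those letters in capitals, is shown because Ctss is the member whose call below held without each single library.
Ctss, chr3:95526666-95526785, plus strand: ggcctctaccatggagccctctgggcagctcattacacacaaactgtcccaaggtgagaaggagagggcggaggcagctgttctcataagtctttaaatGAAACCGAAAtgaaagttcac

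The classical chains were highest in ND. H2-Aa, the alpha chain of the I-A molecule, stood at 618, 667 and 673 FPKM in ND 1 to 3, at 264, 407, 163 and 31.9 in HFD 1 to 4, and at 343, 380.5, 32.2 and 119.6 in FSP 1 to 4. Every ND library lay above every HFD and every FSP library, and HFD 4 and FSP 3 were the lowest. H2-Ab1, its beta chain, stood at 473, 541 and 546 FPKM in ND, at 158, 328, 138 and 34.3 in HFD, and at 287, 314, 48.4 and 141 in FSP. H2-Eb1, the beta chain of I-E, stood at 207, 228 and 243 FPKM in ND, at 128, 194, 77.1 and 19.1 in HFD, and at 178, 173, 21.5 and 69.7 in FSP. For all 3 chains the HFD and FSP libraries stayed under the lowest ND library and overlapped each other. The means of H2-Aa were 653 ± 29.8 FPKM (SD, n = 3) in ND, 217 ± 159 (SD, n = 4) in HFD and 219 ± 169 (SD, n = 4) in FSP, so HFD and FSP averaged 0.332 and 0.335 of ND.

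**Figure D1:**
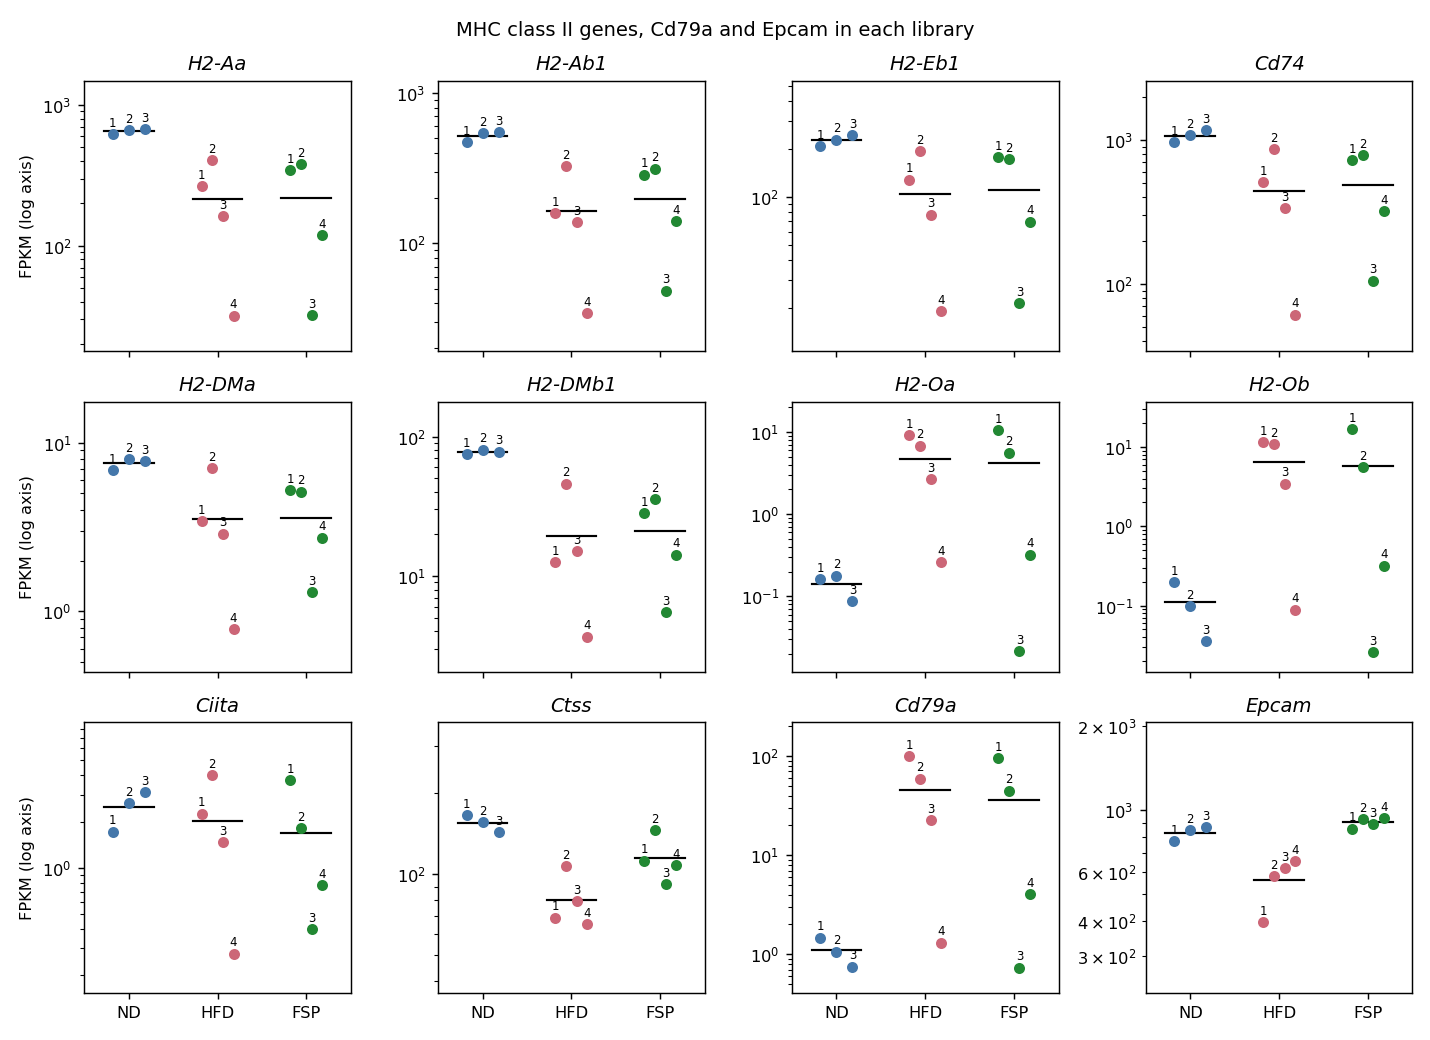
FPKM (log axis) of the 10 members, of the B cell gene Cd79a and of the epithelial gene Epcam in each library of ND, HFD and FSP; points are libraries, numbers are replicate numbers and bars are group means. H2-Aa, H2-Ab1, H2-Eb1, Cd74 and H2-DMb1 are highest in all 3 ND libraries and lowest in HFD 4 and FSP 3, whereas H2-Oa and H2-Ob are low in ND, HFD 4, FSP 3 and FSP 4, as Cd79a is.

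The invariant chain gene Cd74 was the most abundant member, with 961, 1079 and 1166 FPKM in ND. It stood at 511, 867, 336 and 61.2 in HFD and at 720.4, 788, 106 and 322 in FSP. No HFD or FSP library reached the lowest ND library. Ctss, the protease that trims the invariant chain, varied least, by 2.55-fold between the highest and the lowest library, where H2-Aa varied by 21.1-fold. It stood at 166, 156 and 143 FPKM in ND, at 69.1, 107, 79.3 and 65.3 in HFD, and at 112, 146, 91.7 and 108 in FSP. All HFD libraries lay under ND, and FSP 2 lay inside the ND range.

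The peptide loading genes divided from the genes that restrain loading. H2-DMb1 stood at 74.9, 80.7 and 78 FPKM in ND, at 12.6, 45.9, 15.1 and 3.68 in HFD, and at 28.2, 35.5, 5.47 and 14.2 in FSP. H2-DMa stood at 6.86, 7.96 and 7.8 FPKM in ND, at 3.43, 7.11, 2.89 and 0.783 in HFD, and at 5.22, 5.12, 1.3 and 2.73 in FSP. H2-DMa overlapped between ND and HFD through HFD 2 alone, while FSP stayed under ND. H2-Oa was near its floor in ND, at 0.163, 0.179 and 0.0881 FPKM, and stood at 9.07, 6.81, 2.66 and 0.264 in HFD and at 10.6, 5.62, 0.0215 and 0.321 in FSP. H2-Ob was the same in kind, at 0.197, 0.099 and 0.0355 FPKM in ND, at 11.5, 11, 3.44 and 0.0885 in HFD, and at 16.9, 5.56, 0.026 and 0.319 in FSP. The libraries low for H2-O were thus the 3 of ND, HFD 4, FSP 3 and FSP 4. At 1 FPKM each kb of a gene carries 31.9 to 38.4 fragments in these libraries, so the lowest of these values stand for about 1 fragment per kb and no fold against ND is given.

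Ciita, the class II coactivator, did not separate the groups. It stood at 1.72, 2.65 and 3.13 FPKM in ND, at 2.26, 4.01, 1.48 and 0.277 in HFD, and at 3.73, 1.82, 0.402 and 0.776 in FSP. The lowest ND library lay below HFD 1, HFD 2, FSP 1 and FSP 2, and HFD 4 and FSP 3 were again the lowest.

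HFD and ND differ, by their labels, in diet. By limma on log2(FPKM + 1), with Benjamini-Hochberg adjustment over all tested genes, 2 of the 10 members fell, 0 rose and 8 did not pass, where 20.5% of all tested genes were called and 15.1% were called lower. A count of 2 in 10 is near that background. The falls were those of Ctss, with a log2 change of −0.97 (SE 0.19, adjusted p = 0.00548), and H2-DMb1, with −2.41 (SE 0.69, adjusted p = 0.0315). The call of Ctss held without every single library and with median-ratio scaling (limma adjusted p = 0.0432). That of H2-DMb1 ended without each of HFD 1, HFD 3, HFD 4, ND 1, ND 2 and ND 3 (limma adjusted p from 0.0557 without HFD 4 to 0.1001 without ND 2) and with median-ratio scaling (limma adjusted p = 0.0591). H2-Aa, H2-Ab1, H2-Eb1, Cd74 and H2-DMa changed by −2.07, −2.04, −1.51, −1.78 and −1.10 and did not pass (limma adjusted p = 0.0647 to 0.179). H2-Oa and H2-Ob changed by 1.93 and 2.23, Ciita by −0.36, and these did not pass either. The median over the 10 members was −1.31, against −0.21 over all tested genes. The groups did not overlap for 7 members, 6 lower in HFD and 1, H2-Oa, higher. Over all tested genes 42.9% did not overlap, with 33.6% lower and 9.28% higher in HFD.

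FSP and HFD differ, by their labels, in the herbal preparation. No member passed limma (0 of 10, with 1 at an unadjusted p under 0.05), where 3.74% of all tested genes were called and 18.7% had an unadjusted p under 0.05. All 10 members overlapped between FSP and HFD, where 10.8% of tested genes did not overlap. Ctss came nearest, with a log2 change of 0.51 (SE 0.17, limma adjusted p = 0.135). H2-Aa changed by −0.04 with a 95% interval from −1.85 to 1.78, and Cd74 by 0.27 with an interval from −1.42 to 1.96. Those intervals hold changes of more than 2-fold in either direction, so an equal level in the 2 groups is not shown. The sign of the small changes depended on single libraries, H2-Aa running from −0.78 to 0.69 as each library was left out.

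FSP against ND gave 0 calls by limma among the 10 members, with 5 at an unadjusted p under 0.05, where 1.03% of tested genes were called, 0.33% were called lower and 14.4% had an unadjusted p under 0.05. H2-DMb1 changed by −2.13 (SE 0.69, limma adjusted p = 0.1796), H2-Aa by −2.11 (SE 0.89, adjusted p = 0.306) and Ctss by −0.45 (SE 0.19, adjusted p = 0.292). With no overlap, 6 members lay lower in FSP than in ND, namely the 3 classical chains, Cd74, H2-DMa and H2-DMb1, where 16.4% of tested genes did not overlap and 10.9% were lower. FSP against ND and HFD against ND share the ND libraries, so they are not independent.

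In HFD and FSP the libraries with the least Cd79a also had the least of the classical chains, Cd74 and H2-DM, although the order of the other libraries differed. Cd79a, a signalling chain of the B cell receptor, stood at 1.47, 1.06 and 0.752 FPKM in ND, at 99.3, 59.3, 22.8 and 1.31 in HFD, and at 95.3, 44.8, 0.733 and 4.07 in FSP. HFD 4 and FSP 3 were thus as low in Cd79a as ND, and these 2 libraries also had the least H2-Aa. HFD 1, the highest in Cd79a, held less H2-Aa than HFD 2 (264 against 407 FPKM) and less H2-DMb1 than HFD 2 and HFD 3 (12.6 against 45.9 and 15.1). FSP 1 held less H2-Aa than FSP 2 (343 against 380.5) at 95.3 against 44.8 of Cd79a. Together 16 B cell genes summed to 3.17 to 7.03 FPKM in ND, 4.68 to 279.9 in HFD and 3.14 to 306 in FSP, and 0 of the 16 passed limma in any of the 3 comparisons. In bulk tissue such as this, fewer cells of a type and less RNA per cell cannot be told apart. Cxcl13, the chemokine that draws B cells into follicles, went the same way, with 66.2, 26.3, 9.8 and 0.0913 FPKM in HFD and 0.137 to 1.18 in ND. The 10 lymphoid follicle genes summed to 5.63 to 6.48 FPKM in ND, 4.15 to 118 in HFD and 1.37 to 106 in FSP.

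H2-Oa and H2-Ob were high in the libraries where Cd79a was high and low where it was low, and their ratios to it did not separate the groups. The lowest ratios were those of FSP 3, where both genes stand for about 1 fragment per kb. The ratio of H2-Oa to Cd79a was 0.11 to 0.168 in ND, 0.0914 to 0.201 in HFD and 0.0293 to 0.126 in FSP. H2-Ob gave 0.0472 to 0.134, 0.0675 to 0.185 and 0.0354 to 0.177. The group ranges of both ratios overlapped in all 3 comparisons. Among 10286 tested genes outside the members, those whose log2(FPKM + 1) was most like that of H2-Ob over the 11 libraries included the proton channel Hvcn1 (Pearson r = 0.997), the follicle homing receptor Cxcr5 (r = 0.996), H2-DMb2 (r = 0.996) and the B cell kinase Blk (r = 0.996). These r describe likeness over libraries that share groups and tissue makeup, and they carry no test. H2-DMb2 stood at 0.191 to 0.425 FPKM in ND and at up to 24.3 in HFD and 26.5 in FSP, where its neighbour H2-DMb1 was highest in ND. H2-Eb2, named after its values were seen, likewise stood at 0.0199 to 0.182 FPKM in ND and at up to 4.67 in HFD and 6.37 in FSP.

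**Figure D2:**
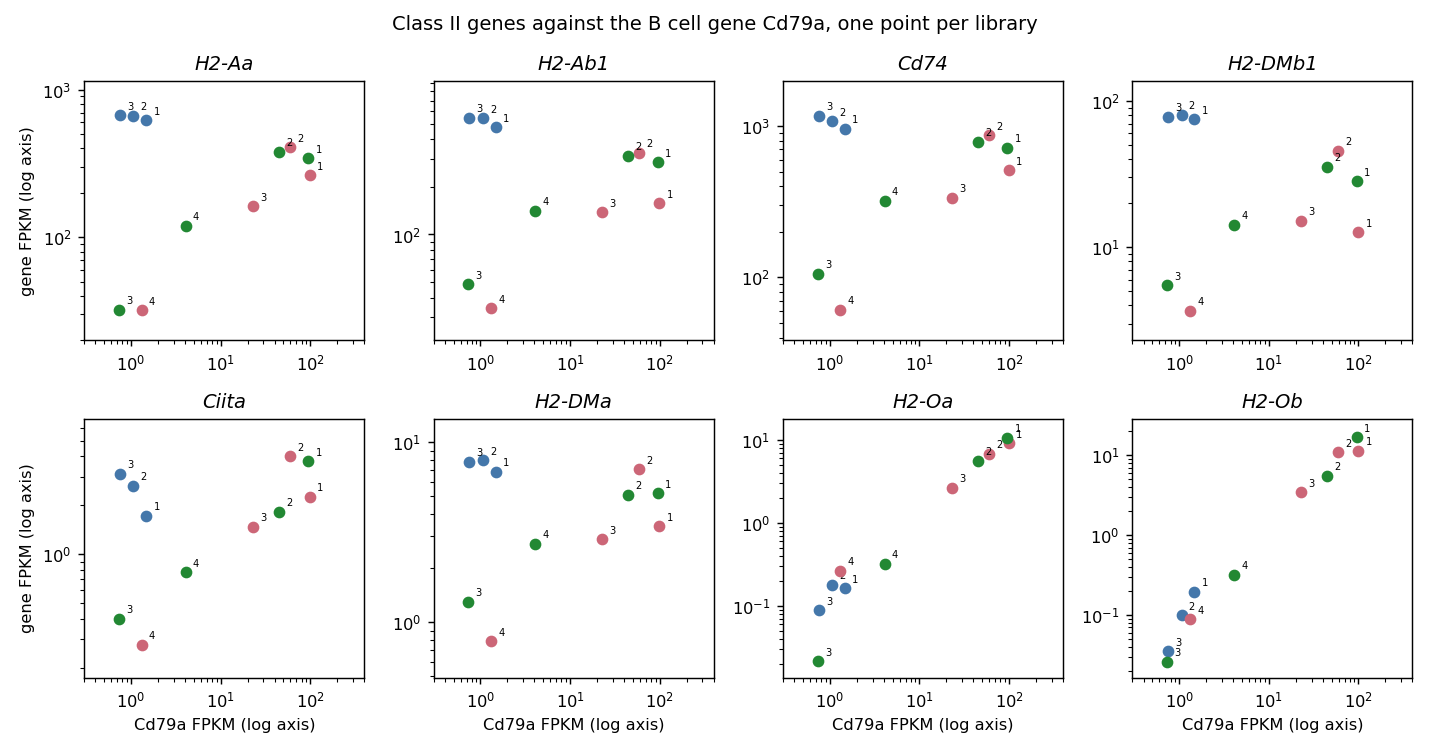
FPKM of 8 members (vertical, log axis) against Cd79a FPKM (horizontal, log axis), 1 point per library marked with its replicate number, blue for ND, red for HFD and green for FSP. H2-Oa and H2-Ob rise along the Cd79a axis with ND among the HFD and FSP libraries of low Cd79a, whereas the ND libraries lie far above the HFD and FSP libraries of like Cd79a for H2-Aa, H2-Ab1, Cd74, H2-DMb1, H2-DMa and Ciita.

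In ND the classical chains were high beside low Cd79a. There were 419.9 to 895 FPKM of H2-Aa per FPKM of Cd79a in ND, against 2.66 to 24.3 in HFD and 3.6 to 43.9 in FSP (exact permutation test of the log2 ratio, two-sided, p = 0.0286 for each against ND, the smallest p that 4 against 3 libraries can give, and 0.109 after Benjamini-Hochberg adjustment over the ratios tested). Single libraries of like Cd79a can be set side by side. ND 2 held 667 FPKM of H2-Aa, 1079 of Cd74 and 2.65 of Ciita at 1.06 of Cd79a, and HFD 4 held 31.9, 61.2 and 0.277 at 1.31 of Cd79a. ND 3 held 673 FPKM of H2-Aa at 0.752 of Cd79a, and FSP 3 held 32.2 at 0.733. These pairs are not alike in the score of gut position described below. It was 3.30 in ND 2 and −1.98 in HFD 4, and 1.56 in ND 3 and −0.36 in FSP 3.

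With log2(Cd79a + 1) as a covariate, 8 of the 10 members fell in HFD against ND by limma, where 12.5% of all tested genes were called and 6.71% were called lower. H2-Aa changed by −4.19 (SE 0.36, limma adjusted p = 0.000411), Cd74 by −3.70 (SE 0.40, adjusted p = 0.000573), H2-DMb1 by −3.85 (SE 0.49, adjusted p = 0.00102) and Ciita by −1.38 (SE 0.28, adjusted p = 0.00909). H2-Oa and H2-Ob changed by −0.17 (95% interval −0.64 to 0.30) and −0.23 (−0.81 to 0.36) and did not pass. In FSP against ND 7 fell, all but H2-Oa, H2-Ob and Ctss, where 2.09% of tested genes were called and 0.593% were called lower. H2-Aa changed there by −3.76 (SE 0.34, limma adjusted p = 0.00102) and Ciita by −1.31 (SE 0.26, adjusted p = 0.0293). In FSP against HFD 1 member rose, Ctss (0.57, SE 0.15, limma adjusted p = 0.0496), where 6.07% of tested genes were called and 4.3% were called higher, and that call ended without each of 10 single libraries. Without FSP 3 the count for FSP against ND was 4. The slope on Cd79a comes from HFD and FSP, since ND spans only 0.752 to 1.47 FPKM, and the covariate was picked with the B cell pattern of these libraries known.

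**Figure D3:**
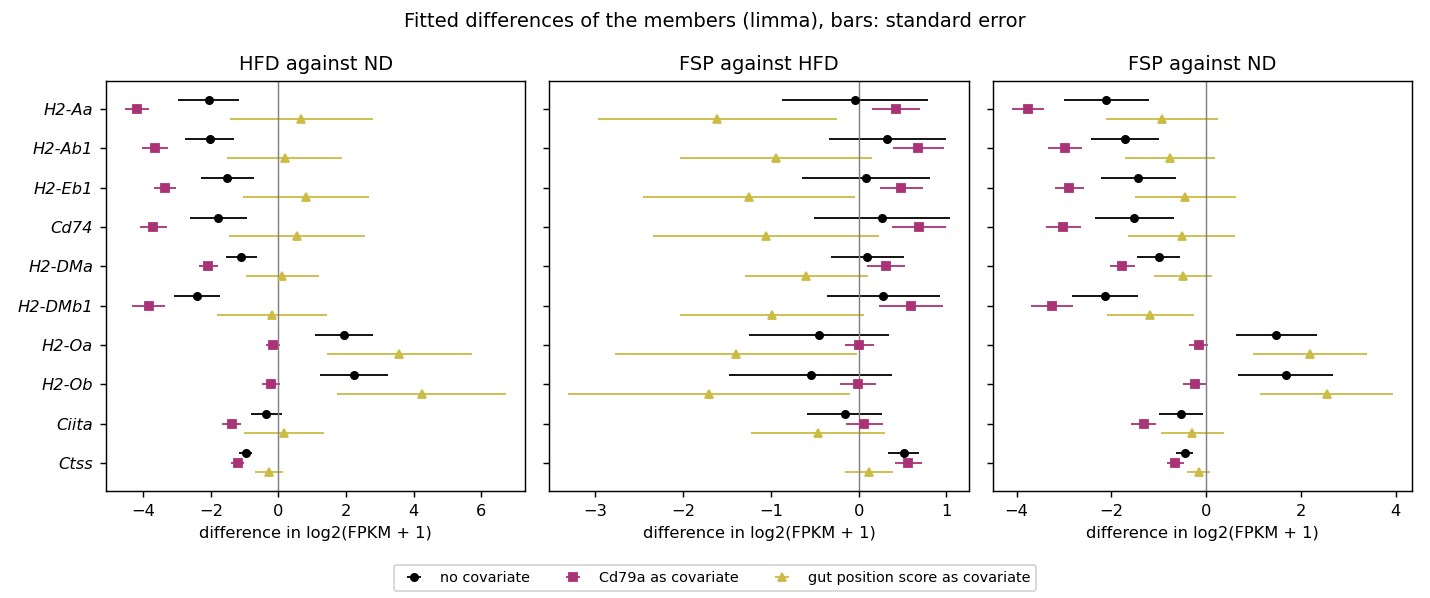
Differences in log2(FPKM + 1) fitted by limma for the 10 members in the 3 comparisons, without a covariate (black), with Cd79a (purple) and with a score of gut position (yellow) as covariate; bars are standard errors. With Cd79a the classical chains, Cd74, H2-DMa, H2-DMb1 and Ciita lie clearly under 0 against ND and H2-Oa and H2-Ob near 0, and with gut position the error bars of all but H2-Oa and H2-Ob reach or pass 0 in HFD against ND.

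The sum of 15 epithelial genes stayed high in libraries where class II was lowest, although some genes of the list were lower there than in ND. Epcam, an adhesion protein of all gut epithelium, stood at 772, 844 and 868 FPKM in ND, at 396, 580.0, 617 and 655 in HFD, and at 857, 926, 888 and 936 in FSP. It fell in HFD against ND (log2 change −0.58, SE 0.16, limma adjusted p = 0.0296) and rose in FSP against HFD (0.71, SE 0.15, adjusted p = 0.0306). Of 15 epithelial genes 5 fell in HFD against ND, 4 rose from HFD to FSP and 0 passed in FSP against ND by limma, where 15.1%, 2.83% and 1.03% of all tested genes were called lower, higher and in either direction. The list's median in HFD against ND was −0.22, against −0.21 over all tested genes. The largest falls in HFD against ND were those of Tspan8 (−1.97), Phgr1 (−0.91) and Cldn7 (−0.72). These stood at 130, 207 and 422 FPKM in HFD 4 and at 281, 274 and 550 in FSP 3. The lowest ND values were 309, 343 and 582. Krt20 went the other way, at 1962 FPKM in HFD 4 against 1067 to 1242 in ND. Cdh1 and Krt8 changed by −0.21 and −0.15 in HFD against ND and did not pass. The list summed to 9833 to 10569.5 FPKM in ND, to 10370.4 in HFD 4 and to 11214 in FSP 3, the libraries where H2-Aa stood at 31.9 and 32.2. The ratio of H2-Aa to Epcam was 0.775 to 0.801 in ND, 0.0488 to 0.702 in HFD and 0.0362 to 0.411 in FSP. With the epithelial mean as a covariate 0 members passed limma in any comparison. Of tested genes 1.81% were called between HFD and ND, 0% between FSP and HFD and 2.28% between FSP and ND. Every HFD library had a lower epithelial mean (7.80 to 8.38) than every ND (8.53 to 8.60) and FSP library (8.53 to 8.76). The parts of epithelial mean and group thus cannot be told apart in HFD against ND or in FSP against HFD.

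A score of gut position, taken from the RNA of marker genes, moved with the groups. Each library was scored by subtracting the mean log2(FPKM + 1) of 11 proximal genes from that of 9 distal ones. It was 1.56 to 4.44 in ND, −1.98 to −1.16 in HFD and −0.36 to 2.01 in FSP. In HFD against ND 7 of 8 tested proximal genes rose and 1, Slc40a1, fell (−1.96). Of the 9 distal genes 8 fell and Cubn did not pass (−0.23), where 20.5% of all tested genes were called. Whether the score follows the stretch of gut sampled or a change in these genes themselves was not tested. With the score as a covariate, 0 members passed limma in any comparison, 0% of tested genes were called between HFD and ND or between FSP and HFD, and 0.0486% between FSP and ND. H2-Aa changed by 0.68 in HFD against ND (limma adjusted p = 0.9701). Every HFD library scored under every ND library, so the parts of score and group in HFD against ND cannot be told apart. Of the FSP libraries only FSP 4 lay inside the ND range of the score, so setting values side by side rests on that single library. FSP 4 had a score of 2.01 and 119.6 FPKM of H2-Aa, and ND 3 had a score of 1.56 and 673. FSP 1 and FSP 2, at 1.29 and 1.26, lay under every ND library in the score. They had 343 and 380.5 FPKM of H2-Aa together with 95.3 and 44.8 of Cd79a.

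Other cells that carry class II were checked with marker lists. The 20 genes of dendritic cells and macrophages summed to 40 to 45.8 FPKM in ND, 35.8 to 103 in HFD and 33.4 to 176 in FSP, so ND was not high. The dendritic cell integrin Itgax stood at 0.199 to 0.367 FPKM in ND, and the dendritic cell genes Flt3 and Zbtb46 stayed at or under 0.302 in every library. Of the 8 tested genes of that list 0 passed limma in any comparison. With the list's mean as a covariate, a choice made with the data in view, 7 members fell in HFD against ND by limma (18.3% of tested genes called, 12.2% lower). In FSP against ND 6 fell (2.25% called, 0.622% lower), and in FSP against HFD 0 passed (5.81% called). Without a covariate 2 members fell in HFD against ND and 0 in FSP against ND. The T cell list of 9 genes summed to 5.48 to 8.93 FPKM in ND, 5.25 to 18.4 in HFD and 2.68 to 22.2 in FSP. Cd3e and Cd3d stayed under 2 FPKM everywhere, and Cd3g, the other T cell receptor chain among them, stood at 0.923 to 7.17. Among 6 genes of group 3 innate lymphoid cells, which can carry class II, Il22 and Il23r stayed at or under 0.324 FPKM in every library.

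Ratios between members were compared within each library, and none passed the adjusted test. In all 19 ratios were computed in 3 comparisons each, or 57 exact tests, and they were picked after values were seen. A ratio within a library does not depend on scaling. H2-Eb1 stood to H2-Aa as 0.335 to 0.361 in ND, 0.473 to 0.598 in HFD and 0.455 to 0.667 in FSP. Cd74 stood to H2-Aa as 1.55 to 1.73 in ND, 1.91 to 2.13 in HFD and 2.07 to 3.28 in FSP. The ratio of Ciita to H2-Aa was 0.00278 to 0.00465 in ND, 0.00854 to 0.00985 in HFD and 0.00479 to 0.0125 in FSP. H2-DMb1 stood to H2-DMa as 9.99 to 10.9 in ND, 3.68 to 6.45 in HFD and 4.22 to 6.93 in FSP. The ND libraries did not overlap HFD or FSP in any of these 4 ratios, and HFD and FSP overlapped in all 4. In HFD against ND all 4 gave p = 0.0286 (exact permutation test of the log2 ratio, two-sided, unadjusted), the smallest possible. In FSP against ND the ratios of H2-Eb1 to H2-Aa and H2-DMb1 to H2-DMa gave p = 0.0286 and the other two p = 0.0571 by the same exact test. Adjusted over the 57 tests by Benjamini-Hochberg the smallest of these exact permutation p became 0.109, so 0 of the 57 passed. Since H2-Aa itself differs, the ratio to H2-Aa of 71.5% of 10274 genes did not overlap between HFD and ND, and of 66.6% between FSP and ND. No such share was taken for ratios to H2-DMa. The ratio of H2-DMa to H2-Aa also kept ND apart from HFD and FSP. Ctss to H2-Aa overlapped between HFD and ND (0.262 to 2.04 against 0.212 to 0.269). H2-DMb1 to H2-Aa overlapped between FSP and ND (0.0823 to 0.17 against 0.116 to 0.121). The ratio of H2-Ab1 to H2-Aa, the chains of I-A, was 0.765 to 0.812 in ND, inside the HFD range of 0.599 to 1.07 and under the FSP range of 0.826 to 1.504.

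**Figure D4:**
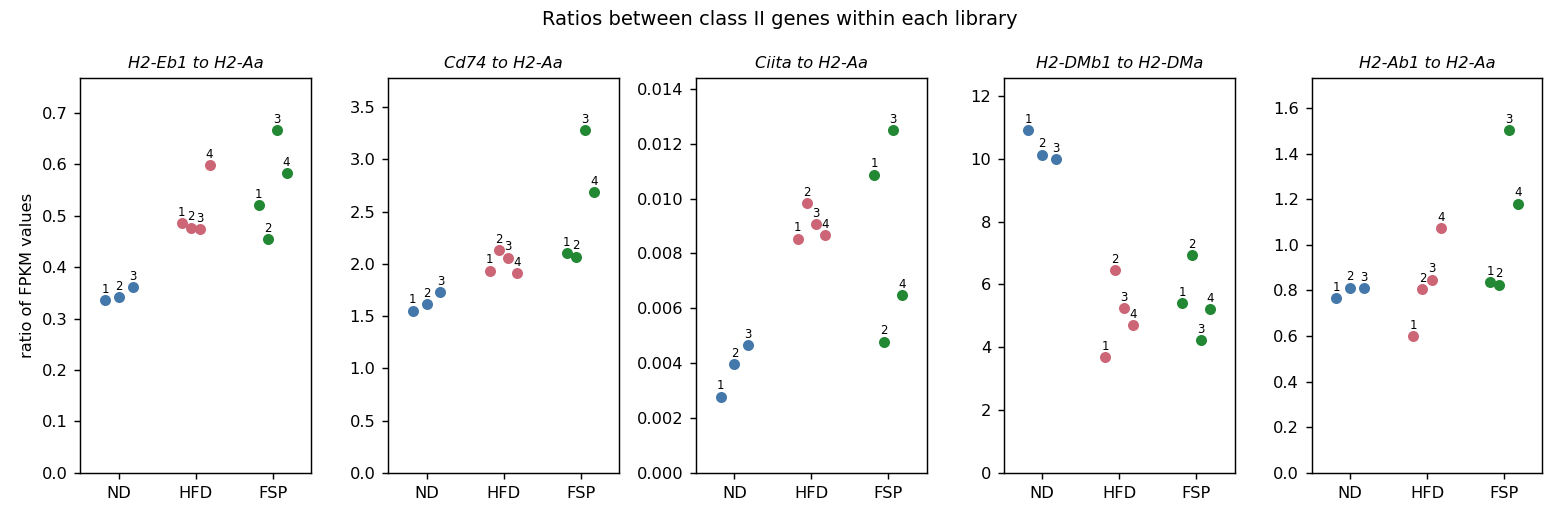
Ratios of FPKM between members within each library of ND, HFD and FSP, linear axes from 0; points are libraries and numbers are replicate numbers. The ND libraries stand apart from HFD and FSP in the first 4 panels, with H2-DMb1 9.99 to 10.9 times H2-DMa in ND and 3.68 to 6.93 times elsewhere, while H2-Ab1 to H2-Aa shows ND inside the HFD range.

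The genes upstream of Ciita and the enzymes beside Ctss were read from lists. Of 8 tested genes of interferon gamma signalling 3 fell, 0 rose and 5 did not pass in HFD against ND, where 20.5% of all tested genes were called and 15.1% called lower. The list's median of −0.20 was close to the −0.21 of all tested genes, and 0 passed in the other comparisons. Among those that fell in HFD were the feedback inhibitor Socs1 (−0.91, limma adjusted p = 0.0214) and the receptor chain Ifngr1 (−0.53, limma adjusted p = 0.0400). Ifng itself stayed at or under 0.07 in every library. Of 16 tested genes that interferon gamma induces, 3 fell and 13 did not pass in HFD against ND, a count near the 15.1% of all tested genes called lower. Of the 16 changes 15 were negative, with a median of −0.56, against 7365 of 10296 negative and a median of −0.21 over all tested genes. Tap1, which feeds peptides to class I, changed by −0.99 (limma adjusted p = 0.0133), and the GTPases Irgm2 and Irgm1 by −1.47 and −1.22. The list had 0 calls between FSP and HFD and 0 between FSP and ND, where all 16 changes were negative with a median of −0.53, against 6390 of 10296 negative and a median of −0.07 over all tested genes.

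Of 11 genes of the complexes that recruit Ciita or of factors that act with it, 1 rose, 2 fell and 8 did not pass in HFD against ND. Of all tested genes 20.5% were called there and 15.1% called lower. The median over these 11 genes was −0.17, against −0.21 over all tested genes. Rfxank, a subunit of the RFX complex, rose by 0.49, and the NF-Y subunit Nfyb and the acetyltransferase Kat2b fell by 0.60 and 0.45 on the log2 scale. Of 11 tested genes of endosomal processing and related chains 4 fell in HFD against ND by limma, 0 rose and 7 did not pass, where 15.1% of all tested genes were called lower. The list's median of −0.16 was no lower than the −0.21 of all tested genes, and 6 of its 11 changes were negative. The protease Ctsc changed by −1.31 (adjusted p = 0.000819), the asparaginyl endopeptidase Lgmn by −1.16 (adjusted p = 0.00213), Sppl2a, which clears the last fragment of the invariant chain, by −0.59, and the protease Ctsd by −0.57. Lgmn was also the 1 gene of that list past limma in FSP against HFD, where it rose by 0.82 (adjusted p = 0.0281). It averaged 19.6 ± 5.503 FPKM (SD, n = 3) in ND, 8.06 ± 0.874 (SD, n = 4) in HFD and 15.1 ± 2.21 (SD, n = 4) in FSP. Unlike the classical chains, Lgmn did not overlap between FSP and HFD, at 12 to 17 against 6.88 to 8.9 FPKM.

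Outside these lists, the 10 tested genes most like the mean of H2-Aa, H2-Ab1 and H2-Eb1, each scaled to its own spread over the 11 libraries, were led by Eloc, an elongin subunit (Pearson r = 0.933), Plekhn1 (r = 0.926), the class Ib gene H2-Q4 (r = 0.900), Commd8 (r = 0.899), Ramac (r = 0.893) and Slfn2 (r = 0.882). Ang, Yeats4, Snhg8 and Rab32 followed at 0.881 to 0.875. No B cell gene was among them. H2-Q4 stood at 27.5 to 32.9 FPKM in ND, 14.9 to 31.2 in HFD and 17.4 to 29.8 in FSP.

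Facts of the libraries bear on these values. Mitochondrially encoded protein genes took 40.4% of summed FPKM in HFD 1 and 12.9% to 26.3% in the others, and median-ratio scaling gave HFD 1 a factor of 0.751 against 0.865 to 1.13 for the rest. Of 4 tested plasma cell genes 1 passed limma, in FSP against ND alone among the 3 comparisons. It was Jchain, which links IgA molecules to each other, at 33.7 to 62.1 FPKM in ND, 70.0 to 151 in HFD and 84.3 to 697 in FSP (FSP against ND 2.76, limma adjusted p = 0.0446). Of all tested genes 1.03% were called in FSP against ND. Adipocyte genes summed to 74.2 to 344 FPKM, highest in FSP 4, and smooth muscle genes to 106 to 815. Their part in the class II differences was not tested.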

How the data were processed

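RNA of 11 small intestine libraries (ND 3, HFD 4, FSP 4) was analysed, grouped by the sample titles. TRIzol served for RNA extraction and the VAHTS Universal V6 kit for library preparation, per the labels' protocols. Per the submitters' processing notes, fastp, HISAT2, HTSeq and R 3.2.0 were used with build mm10. Neither the annotation nor the use of strand is given in the sources used here. FPKM values per gene were deposited by the authors for each library, and the single-library tables repeat them for the genes they share. The FSP tables held the same 24250 genes. Each HFD and ND table held 24294, of which 23609 were shared, and none of its other genes was above 0. Depth was recovered from low values of 658 single-exon genes, at 3.19e+07 to 3.84e+07 fragments, with 73.8% to 78.7% of values up to 10 fragments within 0.05 of a whole number.

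The test was limma 3.58.1 (R 4.3.3) on log2(FPKM + 1), 3 groups in 1 fit with an intensity trend, over 10296 genes averaging at least 1 FPKM, two-sided, with Benjamini-Hochberg adjustment within a comparison and a threshold of 0.05. Log2 changes on this scale understate those of low genes. No member fell under the filter, so the planned permutation test of such members had no use. The fit was tested on simulated data. Members and gene lists were chosen with earlier results of these data known. Named were all members, up to 4 called genes of the smallest p per list, the first 3 markers of cell lists, and the genes most like the class II profile. Some genes that this rule names are not reported here.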

Additional observations from a re-analysis of the deposited data

How the results depend on the processing

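Ctss in HFD against ND passed limma under every scaling, filter and pseudocount tried, with the replicate block, with Cd79a or dendritic cell and macrophage genes as covariate and without each single library, but not with the epithelial or gut position covariates. With no filter on low values 1 member was called in HFD against ND, and all genes called went from 385 to 117 between FSP and HFD and from 106 to 58 between FSP and ND. Median-ratio scaling also left 1 member in HFD against ND, and turned H2-Eb1 to −0.065 and H2-DMa to −0.0083 in FSP against HFD. Rescaling without mitochondrially encoded genes turned H2-Eb1 to −0.022 there. For no filter and for median-ratio scaling the share of all tested genes called in HFD against ND is not given here. Those member counts thus cannot be read against a background.

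The labels do not say whether the replicate numbers pair the libraries, and the correlations do not settle it. Of 10 same-number pairs 5 correlated above 0.1 (r from −0.0994 to 0.454), where the median over other pairs was −0.034. Same-number pairs of HFD and FSP gave 0.38, 0.018, 0.45 and 0.39 in order of number. However, 0 of 11 libraries correlated best with their own number. With the replicate block 4 members were called in HFD against ND, the added 2 being H2-Oa and H2-Ob, both higher. The share of all tested genes called with the block is not given here, so this count cannot be read against a background.

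With Cd79a as covariate 8, 1 and 7 members were called between HFD and ND, FSP and HFD, and FSP and ND, among 1284, 625 and 215 genes. H2-Oa and H2-Ob turned to −0.17 and −0.23 in HFD against ND and to −0.16 and −0.23 in FSP against ND, and H2-Aa, H2-Oa and Ciita to 0.43, 0.0095 and 0.064 in FSP against HFD. With the epithelial mean 0 members were called, among 186, 0 and 235 genes, and H2-Aa, H2-Oa, H2-Ob and Ciita turned to 1.198, 1.51, 1.73 and 0.57 in FSP against HFD. With gut position, added after seeing the data, 0 members were called, among 0, 0 and 5 genes. H2-Aa, H2-Ab1, H2-Eb1, H2-DMa, Cd74 and Ciita turned to 0.68, 0.18, 0.82, 0.12, 0.54 and 0.17 in HFD against ND, and H2-Ab1, H2-Eb1, H2-DMa, H2-DMb1 and Cd74 to −0.94, −1.25, −0.60, −0.99 and −1.06 in FSP against HFD. With dendritic cell and macrophage genes, also added, 7 members were called in HFD against ND and 6 in FSP against ND, with 598 genes between FSP and HFD and 232 between FSP and ND. H2-Ab1, H2-Eb1, H2-DMa, H2-DMb1 and Cd74 turned to −0.33, −0.67, −0.29, −0.31 and −0.48 in FSP against HFD, and H2-Oa and H2-Ob to −0.25 and −0.32 in FSP against ND. The cause of these shifts was not tested.

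Leaving out each library in turn gave 1 to 4 members in HFD against ND, 0 to 1 in FSP against HFD and 0 to 0 between FSP and ND, among 852 to 2688, 48 to 461 and 13 to 205 genes. With Cd79a as covariate the same gave 6 to 8, 0 to 1 and 4 to 8 members. In FSP against HFD the changes ran from −0.78 to 0.69 for H2-Aa, −0.29 to 0.89 for H2-Ab1, −0.58 to 0.71 for H2-Eb1, −0.29 to 0.44 for H2-DMa, −0.27 to 0.84 for H2-DMb1, −0.51 to 0.87 for Cd74, −0.52 to 0.14 for Ciita, −1.07 to 0.10 for H2-Oa and −1.32 to 0.051 for H2-Ob. At 0.818 to 6.93 fragments per kb in ND and FSP 3, depth limits what the H2-Oa and H2-Ob values there can show.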
